A study of Mus musculus with 10 samples.

Results

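Positive acute-phase proteins are plasma proteins that the liver makes in larger amounts during inflammation, infection and tissue injury. Interleukin 6 and interleukin 1 reach the hepatocyte through the blood, and the transcription factors STAT3, C/EBP and NF-kB then raise the transcription of these genes. Serum amyloid A proteins circulate on high-density lipoprotein, the orosomucoids bind small molecules, haptoglobin binds free haemoglobin, hemopexin binds free haem, lipocalin 2 binds bacterial iron carriers, and serum amyloid P component is a pentraxin that binds amyloid fibrils and cell debris. The transcripts described here are those of 10 such genes, *Saa1*, *Saa2*, *Saa3*, *Saa4*, *Orm1*, *Orm2*, *Hp*, *Hpx*, *Lcn2* and *Apcs*, a list of named genes taken from 43629 genes with a count. All 10 were among the 14143 genes that passed the filter on low counts, and each had at least 147 reads in every liver.

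The livers came from 10 adult male mice that carried *Lkb1* flox/flox and were backcrossed to FVB, a model in which an adenovirus given through the nose delivered Cre recombinase under a CMV promoter and started lung tumours. All 10 mice had the same genotype and received the virus, so no tumour-free liver was in the comparison, and the liver was a host tissue away from the tumour. The 5 mice without cachexia (NCACS, mice 11 to 15) had weight changes of -4, -8, -11, -3 and -14%, with a mean of -8% ± 4.64 (SD, n = 5), and the 5 mice with cachexia (CACS, mice 16 to 20) had weight changes of -32, -29, -33, -30 and -29%, with a mean of -30.6% ± 1.82 (SD, n = 5). The comparison asked how the acute-phase transcripts of the liver differ once a mouse with lung cancer has become cachectic.

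Libraries of polyadenylated RNA held 31459179 to 40746178 reads counted to genes. Hepatocyte markers made up most of the marker signal, with a summed level of 79800 to 121400 CPM in NCACS livers and 115600 to 139700 CPM in CACS livers. Most of that sum was *Alb*, the gene of albumin, with means of 68590 CPM in NCACS and 92840 CPM in CACS. *Alb* and *Ttr* in this list also encode plasma proteins that fall in inflammation, and *Fgb* encodes one that rises. The sum thus mixes hepatocyte content with the acute-phase state, and a difference in hepatocyte content was not tested. CPM here means a read count scaled to library size. Each liver is 1 mouse. Fewer cells of a type and less RNA per cell cannot be told apart in bulk liver.

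The 4 *Saa* genes lie beside each other on chromosome 7 (GRCm38, GENCODE M21 gene ends). In order they are *Saa3* (ENSMUSG00000040026, chr7:46711998-46715700, minus strand), *Saa4* (ENSMUSG00000040017, chr7:46727998-46732603, minus), *Saa1* (ENSMUSG00000074115, chr7:46740497-46742980, minus) and *Saa2* (ENSMUSG00000057465, chr7:46751790-46754313, plus). *Saa1* and *Saa2* are read away from each other, with 8.81 kb between them. *Orm1* (ENSMUSG00000039196, chr4:63344560-63348163, plus) and *Orm2* (ENSMUSG00000061540, chr4:63362449-63365878, plus) lie on either side of *Orm3*. The other members lie apart from these clusters: *Hp* (ENSMUSG00000031722, chr8:109575128-109579172, minus), *Hpx* (ENSMUSG00000030895, chr7:105591613-105600137, minus), *Lcn2* (ENSMUSG00000026822, chr2:32384633-32388252, minus) and *Apcs* (ENSMUSG00000026542, chr1:172893961-172895041, minus). All 10 are protein coding.

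Several members are close copies. The longest protein-coding transcripts of *Saa1* and *Saa2* had the same base in 572 of 655 aligned positions (87.3%), and those of *Orm1* and *Orm2* in 705 of 775 (91%). None of the 100-base windows of the *Saa1* and *Saa2* transcripts occurred exactly in another gene, whereas 47 of the 676 windows of *Orm1* (6.95%) occurred in *Orm2*. A read of 100 bases from such a stretch fits both genes, so the split of reads between *Orm1* and *Orm2* is the less certain of the pairs.

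RefSeq sequence before the transcription start (GRCm38.p6) was found for 8 of the 10 members, with none for *Orm1* and *Hp*. The sequences are the 250 bases before the start, read 5′ to 3′ on the strand of the gene, for the 5 members whose transcripts ranged most widely between livers and for *Saa4*, which ranged least. They are *Saa1* (chr7:46742981-46743230, minus), *Saa2* (chr7:46751583-46751832, plus), *Saa3* (chr7:46715677-46715926, minus), *Saa4* (chr7:46732604-46732853, minus), *Orm2* (chr4:63362199-63362448, plus) and *Lcn2* (chr2:32387740-32387989, minus). The start is that of RefSeq and can differ from the GENCODE gene ends given above. The stretch of *Lcn2* lies inside its GENCODE gene, and those of *Saa2* and *Saa3* run into theirs. Capitals mark matches to TTGCNNAA, a spelling of the C/EBP motif, on either strand.
Saa1: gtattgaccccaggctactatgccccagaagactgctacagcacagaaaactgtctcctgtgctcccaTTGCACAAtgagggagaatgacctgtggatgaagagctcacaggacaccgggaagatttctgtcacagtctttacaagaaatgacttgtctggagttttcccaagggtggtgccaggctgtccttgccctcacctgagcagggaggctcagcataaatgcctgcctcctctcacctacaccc
Saa2: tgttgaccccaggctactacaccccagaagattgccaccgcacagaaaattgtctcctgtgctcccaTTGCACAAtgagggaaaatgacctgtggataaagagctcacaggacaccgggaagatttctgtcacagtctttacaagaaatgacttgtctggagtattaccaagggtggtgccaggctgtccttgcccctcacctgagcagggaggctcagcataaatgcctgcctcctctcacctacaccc
Saa3: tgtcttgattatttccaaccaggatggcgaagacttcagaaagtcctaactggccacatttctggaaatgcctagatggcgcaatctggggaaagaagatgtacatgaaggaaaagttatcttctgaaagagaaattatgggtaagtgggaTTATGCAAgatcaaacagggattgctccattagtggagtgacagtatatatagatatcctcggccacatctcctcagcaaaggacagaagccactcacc
Saa4: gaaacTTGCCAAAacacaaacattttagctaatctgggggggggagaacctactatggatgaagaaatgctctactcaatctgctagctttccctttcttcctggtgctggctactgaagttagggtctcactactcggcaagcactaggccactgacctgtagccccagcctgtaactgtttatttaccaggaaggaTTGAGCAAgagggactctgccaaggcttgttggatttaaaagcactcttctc
Orm2: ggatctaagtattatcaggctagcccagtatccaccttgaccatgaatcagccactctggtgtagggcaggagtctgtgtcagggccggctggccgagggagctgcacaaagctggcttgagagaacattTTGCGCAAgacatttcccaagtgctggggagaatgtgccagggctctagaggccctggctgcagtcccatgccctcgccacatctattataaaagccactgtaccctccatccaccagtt
Lcn2: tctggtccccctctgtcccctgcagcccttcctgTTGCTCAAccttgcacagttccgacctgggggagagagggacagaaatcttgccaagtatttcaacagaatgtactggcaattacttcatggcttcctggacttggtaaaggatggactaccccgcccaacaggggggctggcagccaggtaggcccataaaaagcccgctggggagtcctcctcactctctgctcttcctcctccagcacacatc

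The upstream stretches of *Saa1* and *Saa2* had the same base in 238 of 251 aligned positions (94.8%), and both held TTGCACAA, at 182 and 183 bases before the start. The other pairs of *Saa* genes had 49.1 to 52.9% identity there. *Saa3* carried its match on the minus strand (TTATGCAA, 99 bases before the start), *Saa4* carried TTGCCAAA at 245 bases and TTGAGCAA on the minus strand at 52 bases, *Orm2* carried TTGCGCAA, which reads the same on both strands, at 120 bases, and *Lcn2* carried TTGCTCAA at 216 bases. With *Hpx* (TTGCTGAA, 200 bases), 7 of 8 members held the C/EBP spelling, which was present in 9.56% of 32851 RefSeq stretches of the same length. The STAT spelling TTCNNNGAA was found in 1 of 8 members, *Apcs* (TTCTAGGAA, 244 bases), and in 7.02% of all stretches. An NF-kB spelling, GGG and TTTCC with any 2 bases between them, was found in 0 of 8 members and in 1.41% of all stretches. Both strands were searched, the 3 spellings were searched separately, and a match or its absence describes these letters only.

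*Saa1* and *Saa2* encode the serum amyloid A proteins that the liver secretes in acute inflammation. *Saa1* was at 1905, 3017, 13592, 47.9 and 3431 CPM in NCACS livers 11 to 15 and at 899, 12.5, 131, 334 and 602 CPM in CACS livers 16 to 20. The 4 NCACS livers other than 14 all lay above every CACS liver, and NCACS liver 14 lay below all CACS livers except 17. The mean was 4398.5 ± 5303 CPM in NCACS and 396 ± 359 CPM in CACS (SD, n = 5 each), and the median of the NCACS livers was 9.04 times that of the CACS livers.

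*Saa2* was at 933, 2095, 12872, 11.9 and 1177 CPM in NCACS livers 11 to 15 and at 251, 3.86, 34.4, 103 and 200.3 CPM in CACS livers 16 to 20. Its livers were arranged as those of *Saa1* were, with the same 4 NCACS livers above all CACS livers and NCACS liver 14 above CACS liver 17 alone. The mean was 3418 ± 5337 CPM in NCACS and 119 ± 106 CPM in CACS (SD, n = 5 each), and the NCACS median was 11.4 times the CACS median. *Saa2* had the widest range of the 10 members, with 3338 times more CPM in its highest liver than in its lowest.

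In edgeR's quasi-likelihood test *Saa1* had a log2 fold change (CACS minus NCACS) of -3.47 (SE 1.205, adjusted p = 0.124) and *Saa2* of -4.85 (SE 1.45, adjusted p = 0.0843), so neither passed the threshold of 0.05. The SE of a fold change was worked back from the F statistic of this test and is not a separate estimate of spread. An exact permutation test on the livers' log2 CPM (two-sided) gave p = 0.119 for *Saa1* and p = 0.103 for *Saa2*, where the smallest p that 5 livers against 5 allow is 0.00794. DESeq2 called both genes, with a log2 fold change of -3.49 and adjusted p = 0.00780 for *Saa1* and of -4.86 and adjusted p = 0.00124 for *Saa2*. Without NCACS liver 13 the edgeR log2 fold changes were -2.41 (adjusted p = 0.247) and -3.15 (adjusted p = 0.172), and without NCACS liver 14 the adjusted p-values were 0.0715 and 0.0553.

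*Saa3* encodes a serum amyloid A made in macrophages and fat tissue as well as in the liver. It was at 38.8, 78.1, 5247, 5.03 and 771 CPM in NCACS livers 11 to 15 and at 264, 3.99, 11.7, 18.8 and 280 CPM in CACS livers 16 to 20. The groups overlapped widely: CACS livers 16 and 20 lay above NCACS livers 11, 12 and 14. The log2 fold change was -3.41 (SE 1.68, adjusted p = 0.267 in edgeR's test), and it was -0.95 without NCACS liver 13.

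*Saa4* encodes the serum amyloid A that the liver makes constitutively. It was at 576, 673, 1211, 370 and 938 CPM in NCACS livers 11 to 15 and at 921, 301, 628, 753 and 664 CPM in CACS livers 16 to 20. Its highest liver held 4.02 times its lowest, the narrowest range of the 10 members. The group means were 753 ± 327 and 653 ± 227 CPM (SD, n = 5 each), and the log2 fold change of -0.21 (SE 0.331, adjusted p = 0.767 in edgeR's test) was 0.03 without NCACS liver 13.

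*Orm1* and *Orm2* encode orosomucoids, acidic glycoproteins of the plasma. *Orm1* was at 1237, 1353, 4420, 693 and 1616 CPM in NCACS livers 11 to 15 and at 1290, 384, 844, 1122 and 1525 CPM in CACS livers 16 to 20. *Orm2* was at 66.7, 101, 881, 20.5 and 302 CPM in NCACS livers and at 148, 6.85, 21.6, 60.2 and 125 CPM in CACS livers, in the same order. For both genes NCACS liver 13 was the highest and CACS liver 17 the lowest, and the other livers of the groups overlapped. The highest liver held 11.5 times the lowest for *Orm1* and 129 times the lowest for *Orm2*.

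The log2 fold change was -0.85 for *Orm1* (SE 0.475, adjusted p = 0.322 in edgeR's test) and -1.92 for *Orm2* (SE 0.974, adjusted p = 0.277 in edgeR's test). Without NCACS liver 13 the values were -0.25 and -0.76.

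*Hp* encodes haptoglobin and *Hpx* hemopexin. *Hp* was at 6675, 7241, 22130, 1930 and 10342 CPM in NCACS livers 11 to 15 and at 9722, 2914, 6261, 8001 and 8569 CPM in CACS livers 16 to 20. *Hpx* was at 7861, 8421, 28616, 3664 and 12496 CPM in NCACS livers and at 11892, 4175, 6681, 8295 and 12993 CPM in CACS livers. NCACS liver 14 was the lowest liver for both genes, and CACS liver 17 was next. The groups shared most of their range, and the CACS median of *Hp* (8001 CPM) was above the NCACS median (7241 CPM).

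The log2 fold change was -0.45 for *Hp* (SE 0.516, adjusted p = 0.664 in edgeR's test) and -0.47 for *Hpx* (SE 0.485, adjusted p = 0.614 in edgeR's test). Without NCACS liver 13 both turned to 0.12.

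*Lcn2*, which encodes lipocalin 2, was at 106, 270, 4117, 5.24 and 298 CPM in NCACS livers 11 to 15 and at 324, 5.14, 73.6, 147 and 197 CPM in CACS livers 16 to 20. NCACS liver 13 alone stood above the CACS livers, and NCACS liver 14 and CACS liver 17 were at nearly the same low level. The highest liver held 801 times the lowest. The log2 fold change was -2.68 (SE 1.36, adjusted p = 0.277 in edgeR's test; -0.18 without NCACS liver 13), whereas the NCACS median was 1.84 times the CACS median.

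*Apcs*, which encodes serum amyloid P component, was at 703, 684, 1851, 363 and 832 CPM in NCACS livers 11 to 15 and at 1060, 282, 790, 856 and 1033 CPM in CACS livers 16 to 20. The median was 703 CPM in NCACS and 856 CPM in CACS, whereas the means were 886 ± 566 and 804 ± 314 CPM (SD, n = 5 each). The log2 fold change of -0.14 (SE 0.421, adjusted p = 0.886 in edgeR's test) became 0.32 without NCACS liver 13 and 0.08 without CACS liver 17.

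**Figure D1:**
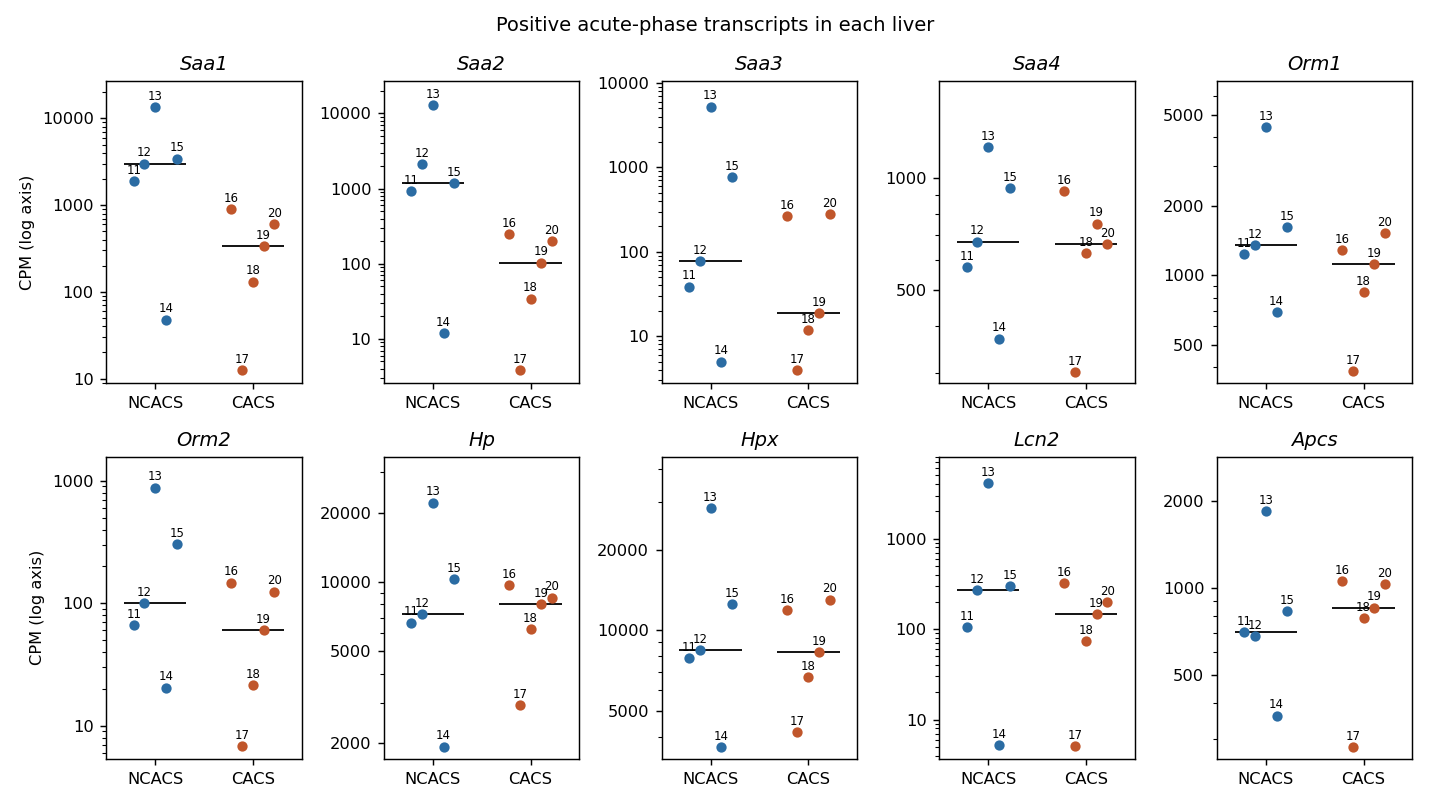
CPM of each member (log axis, a separate range for each gene) in the 5 NCACS and 5 CACS livers. Points are single livers labelled with the mouse number and bars are group medians. NCACS liver 13 is the highest point in all 10 plots, and NCACS liver 14 and CACS liver 17 are the 2 lowest.

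None of the 10 members (0 of 10) was called at an adjusted p under 0.05 in edgeR's test, against 3.8% of all tested genes (538 of 14143) and 1.92% in the lower direction (271). At an unadjusted p under 0.05, 2 of 10 members passed (*Saa1* and *Saa2*), against 21.6% of all tested genes (3051) and 10.3% in the lower direction. No member had groups that did not overlap, whereas 7.07% of all tested genes did, 3.13% with CACS lower. All 10 log2 fold changes were below 0, as were 50.6% of those of all tested genes, and the median was -1.39 over the members and -0.00525 over all tested genes. DESeq2 gave a p-value for 9 members and none for *Lcn2*, and it called 2 of the 9, against 10% of the genes it tested (5.15% lower), and limma-voom called 0 of 10, against 3.6% (1.92% lower). The 10 members were measured in the same livers, so their common sign is not 10 separate observations.

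One arrangement of livers recurred in all members. NCACS liver 13 was the highest liver for 10 of 10 members, and it was the highest for 14.1% of all tested genes. NCACS liver 14 and CACS liver 17 were the 2 lowest livers for 10 of 10 members, and they were for 3.3% of all tested genes. Livers 13, 14 and 17 were picked from the members' own values, so these shares are a description and not a test. CACS liver 17 was the lowest for 8 members and NCACS liver 14 for *Hp* and *Hpx*. NCACS liver 15 was the second highest for 6 members, CACS liver 16 for *Lcn2* and *Apcs*, NCACS liver 12 for *Saa2* and CACS liver 20 for *Hpx*.

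The members differed in how far they moved between the same livers. The SD of log2 CPM within the NCACS group was 3.89 for *Saa3*, 3.71 for *Saa2*, 3.45 for *Lcn2*, 3.05 for *Saa1* and 2.08 for *Orm2*. It was 1.28 for *Hp*, 1.08 for *Hpx*, 0.97 for *Orm1*, 0.84 for *Apcs* and 0.66 for *Saa4*. In CACS livers the same 5 genes led, from 2.76 for *Saa3* to 1.85 for *Orm2*, and *Saa4* was last at 0.61. The SD was larger in the NCACS than in the CACS livers for 10 of 10 members and for 53.7% of all tested genes.

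**Figure D2:**
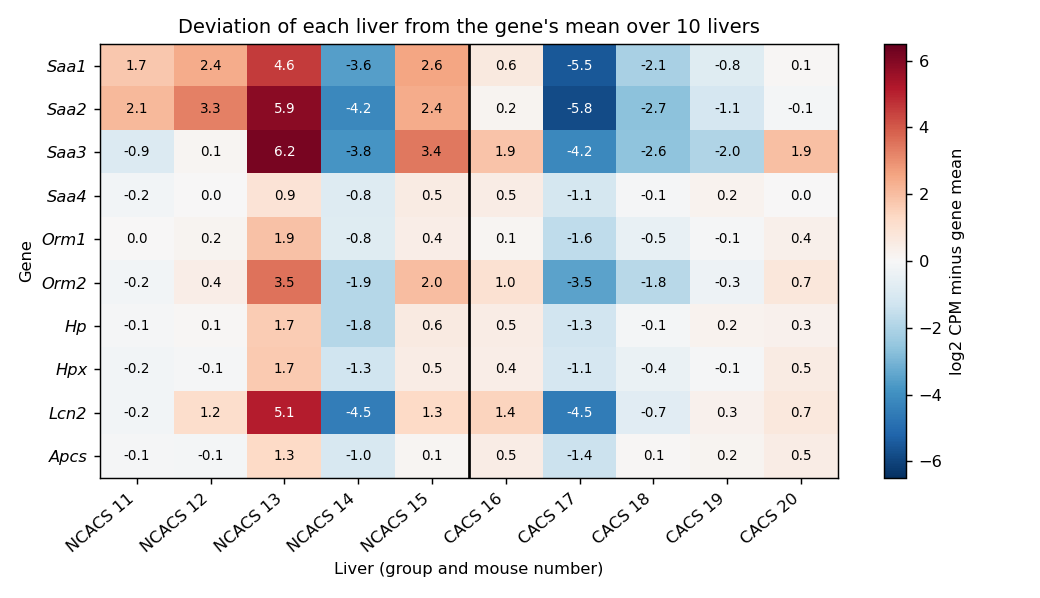
Log2 CPM of each member (vertical axis) in each liver (horizontal axis) minus the mean of that gene over the 10 livers, as colour and number. The column of NCACS liver 13 is high for every member and those of NCACS liver 14 and CACS liver 17 are low for every member, with the strongest colours for *Saa1*, *Saa2*, *Saa3* and *Lcn2*.

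The edgeR fold change compares mean counts, so NCACS liver 13 weighs more in it than in a mean of log2 values. The difference of mean log2 CPM was -3.08 for *Saa1*, -3.79 for *Saa2*, -1.98 for *Saa3*, -1.14 for *Lcn2* and -1.56 for *Orm2*. With that liver left out, the edgeR log2 fold changes of *Saa4*, *Hp*, *Hpx* and *Apcs* turned positive and the other 6 stayed negative. In the 10 edgeR fits that left out 1 liver each, 0 of 10 members were called, against 1.24 to 3.64% of all tested genes.

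**Figure D3:**
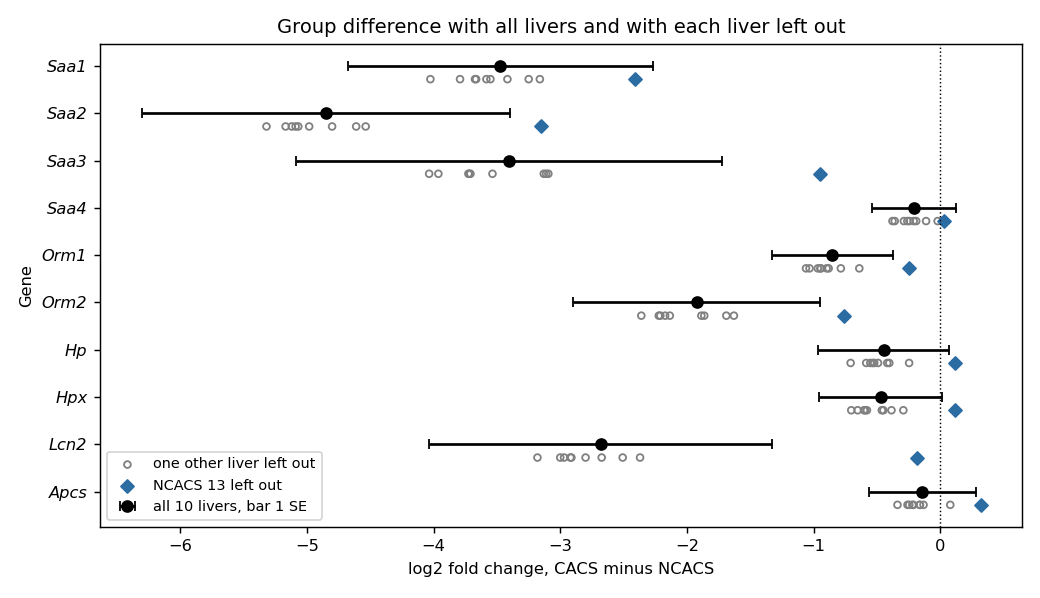
Log2 fold change of each member, CACS minus NCACS (horizontal axis). Black points with bars of 1 SE are the fit to all 10 livers, open circles are fits without another single liver, and diamonds are fits without NCACS liver 13, which lie furthest to the right for every member.

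The members together held 1.92, 2.51, 9.19, 0.728 and 3.16% of all counts in NCACS livers 11 to 15 and 2.63, 0.863, 1.51, 2.005 and 2.57% in CACS livers 16 to 20. The means were 3.50% ± 3.30 in NCACS and 1.92% ± 0.745 in CACS (SD, n = 5 each). The 4 *Saa* genes held 0.0445 to 3.19% of the counts in NCACS livers and 0.0343 to 0.229% in CACS livers, so that the second lowest NCACS liver (0.331%) was above the highest CACS liver and the lowest NCACS liver was below all CACS livers except 17. *Alb*, the gene of albumin, held 4.49 to 8.51% in NCACS livers and 8.76 to 10.4% in CACS livers. On normalized CPM the groups overlapped for *Alb*, with 45740 to 88870 CPM in NCACS and 82140 to 107300 CPM in CACS.

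On a scale of CPM per kilobase of the longest protein-coding transcript, which allows levels to be set beside each other, *Hpx* (8146.5), *Saa1* (7222.5), *Hp* (7185) and *Saa2* (5242) had the highest NCACS means. In CACS livers *Hpx* (5875) and *Hp* (5274) were followed by *Orm1* (1333), *Apcs* (828), *Saa1* (650), *Saa4* (312) and *Saa2* (182). *Orm2* (354 in NCACS, 93.2 in CACS) was below *Orm1* (2405 and 1333) in both groups. Among these, neighbours in the order differed by less than the larger SD of the pair, except *Hp* and *Orm1* in CACS livers. On merged exons, which for *Saa1* include 2478 bases in place of 609, the NCACS mean of *Saa1* was 1775 and that of *Saa2* was 1357.

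Ratios between related members within a liver were taken after 0.5 CPM was added to each gene, which moves them slightly where CPM is low. Apart from that addition they do not depend on library scaling. *Saa2* was at 0.49, 0.694, 0.947, 0.255 and 0.343 of the CPM of *Saa1* in NCACS livers 11 to 15 and at 0.279, 0.334, 0.265, 0.311 and 0.333 in CACS livers 16 to 20. The ratio was narrow in CACS livers (SD 0.152 on the log2 scale) and wide in NCACS livers (SD 0.759). The mean log2 ratio was 0.69 lower in CACS, with p = 0.103 in a two-sided exact permutation test and 0.206 after adjustment over the 4 ratios tested.

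*Saa1* was at 3.31, 4.48, 11.2, 0.131 and 3.66 times the CPM of *Saa4* in NCACS livers 11 to 15 and at 0.977, 0.0432, 0.21, 0.443 and 0.907 times in CACS livers 16 to 20. The inducible gene thus had more CPM than the constitutive gene in 4 of 5 NCACS livers and in 0 of 5 CACS livers. CPM is not scaled to transcript length, which was 609 bases for *Saa1* and 2094 bases for *Saa4*, so these counts hold for CPM only. Per kilobase of transcript the CACS mean of *Saa1* (650 ± 590, SD) was above that of *Saa4* (312 ± 108). The log2 ratio fell by 2.89 (exact permutation p = 0.0714, adjusted p = 0.206). Without NCACS liver 14 the exact permutation p was 0.00794 for both the *Saa1*/*Saa4* and the *Saa2*/*Saa1* ratio (adjusted p = 0.0159). With any other liver left out, neither ratio passed the exact permutation test (adjusted p from 0.201 to 0.318).

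The log2 ratio of *Orm2* to *Orm1* was -3.55 ± 1.17 in NCACS and -4.38 ± 1.09 in CACS (SD, n = 5 each; exact permutation p = 0.262, adjusted p = 0.349). That of *Hp* to *Hpx* was -0.40 ± 0.297 and -0.31 ± 0.246 (exact permutation p = 0.651, adjusted p = 0.651).

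The weight change of each mouse is set beside its transcripts here as a description. In order from the smallest to the largest weight loss, the NCACS mice (-3, -4, -8, -11 and -14%) had *Saa1* at 47.9, 1905, 3017, 13592 and 3431 CPM and *Orm2* at 20.5, 66.7, 101, 881 and 302 CPM. For both genes each level was above the one before it, except that of the mouse at -14%. The CACS mice had *Saa1* at 12.5 and 602 CPM (both at -29%), 334 CPM (-30%), 899 CPM (-32%) and 131 CPM (-33%), with no such order. The weights form separate clusters of 5 mice each, and the relation of transcript level to weight within or between them was not tested.

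**Figure D4:**
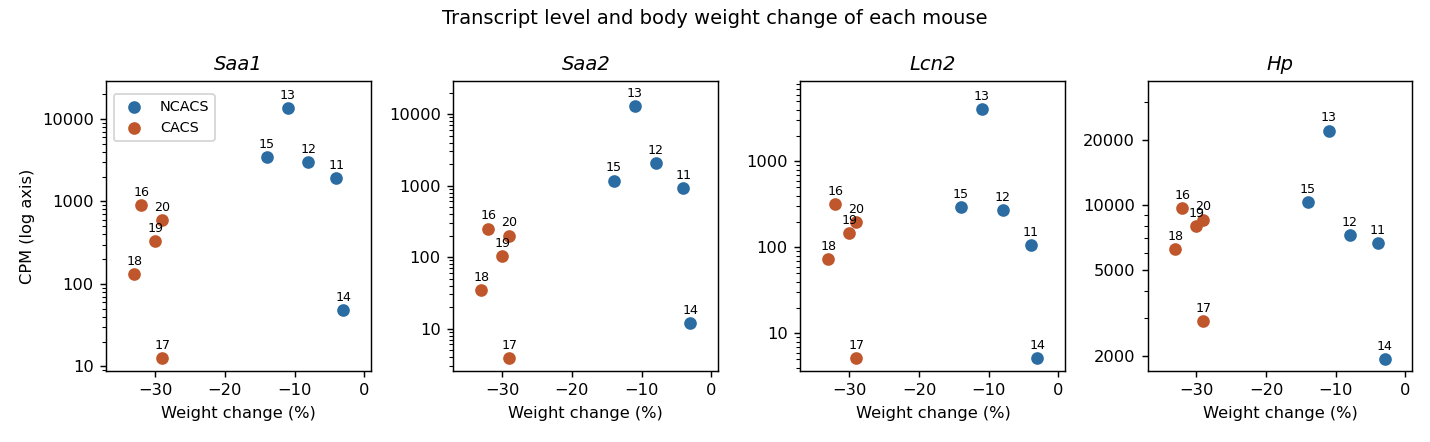
CPM (log axis) of *Saa1*, *Saa2*, *Lcn2* and *Hp* against the weight change of the mouse in percent. Points are single livers labelled with the mouse number. NCACS mice lie between -14 and -3% and CACS mice between -33 and -29%, and both clusters span a wide range of CPM.

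Of 23 other positive acute-phase genes of the liver, all tested, 0 rose and 0 fell in edgeR's test (11 log2 fold changes above 0 and 12 below 0, median -0.02). *Il1rn*, the gene of the interleukin 1 receptor antagonist, came closest. It was at 4.45, 6.67, 17.8, 2.53 and 14.5 CPM in NCACS livers 11 to 15 and at 4.45, 1.36, 1.27, 2.23 and 1.46 CPM in CACS livers 16 to 20 (log2 fold change -2.08, SE 0.539, adjusted p = 0.0551). The next values were -1.90 for *Timp1* (adjusted p = 0.186), -1.10 for *Cd14* (adjusted p = 0.386) and 0.78 for *Orm3* (adjusted p = 0.576), all in edgeR's test. *Orm3* differed from its neighbours in the livers where it was high, with 100.5 CPM in CACS liver 20 against 38.6 CPM in NCACS liver 13.

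The arrangement of livers was shared by part of that list. NCACS liver 13 was the highest for 16 of the 23 genes and NCACS liver 14 and CACS liver 17 were the 2 lowest for 16 of the 23, and both held for 12 of the 23, against 1.54% of all tested genes. Of 8 negative acute-phase genes, which encode plasma proteins that fall in inflammation, none had NCACS liver 14 and CACS liver 17 as its 2 lowest. That is near the share of all tested genes (3.3%), so it does not set these 8 genes apart. In the comparison of the groups 0 of the 8 rose and 0 fell in edgeR's test (median log2 fold change 0.24). *Ahsg*, the gene of fetuin A, was at 7038 to 10750 CPM in NCACS and at 11090 to 14130 CPM in CACS without overlap (log2 fold change 0.54, adjusted p = 0.0889 in edgeR's test). The value was 0.44 for *Alb* (adjusted p = 0.290), -0.43 for *Serpina6* (adjusted p = 0.343) and 0.35 for *Apoa1* (adjusted p = 0.303).

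The cytokines that drive these genes were scarce in liver RNA. *Il6* had 0 to 3 reads in a liver, *Tnf* 4 to 37, *Osm* 0 to 11 and *Il22* 0, and only *Il1a* and *Il1b* of the 8 listed passed the filter, with neither called. Liver RNA does not measure cytokine made elsewhere in the body. Of 11 receptors and kinases, 1 rose and 2 fell in edgeR's test, with a median log2 fold change of 0.00.

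*Il1r1*, the signalling receptor of interleukin 1, was at 54.2, 84.7, 76.4, 45.2 and 62.8 CPM in NCACS livers 11 to 15 and at 238, 77.8, 141, 161 and 137 CPM in CACS livers 16 to 20 (log2 fold change 1.22, SE 0.261, adjusted p = 0.0318 in edgeR's test). *Lifr*, the receptor of leukaemia inhibitory factor, was at 231 to 358 CPM in NCACS and 175 to 220 CPM in CACS (log2 fold change -0.55, adjusted p = 0.0414). *Tyk2*, a Janus kinase, was at 29.2 to 35.4 CPM in NCACS and 22.9 to 27.9 CPM in CACS (log2 fold change -0.42, adjusted p = 0.0314). CACS liver 17, the lowest of its group for all members, was also the lowest CACS liver for *Il1r1*. The call of *Il1r1* ended when NCACS liver 11, 14 or 15 or CACS liver 16, 19 or 20 was left out (adjusted p up to 0.0711 in edgeR's test), that of *Lifr* when any liver but NCACS 14 was left out (up to 0.0907), and that of *Tyk2* when any liver but NCACS 15 or CACS 19 was left out. *Il6ra*, the interleukin 6 receptor, and *Osmr*, the oncostatin M receptor, were both 0.58 higher on the log2 scale in CACS, without passing the test (adjusted p = 0.185 and 0.213 from edgeR).

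Of 13 transcription factors and inhibitors, 1 rose and 0 fell in edgeR's test (median log2 fold change 0.21). *Hnf4a*, a transcription factor of hepatocyte identity, was at 568 to 688 CPM in NCACS and 729 to 1007 CPM in CACS (log2 fold change 0.50, SE 0.12, adjusted p = 0.0435), a call that ended when any liver but CACS 18 was left out (adjusted p up to 0.0974 in edgeR's test). *Cebpd* was at 1.02 to 2.89 CPM in NCACS and at 6.92, 2.60, 1.501, 7.35 and 5.35 CPM in CACS livers 16 to 20 (log2 fold change 1.23, adjusted p = 0.119 in edgeR's test). The values were 0.62 for *Cebpb* (adjusted p = 0.149), 0.56 for *Nfkbiz* (adjusted p = 0.224), 0.27 for *Socs3*, an inhibitor induced by STAT3 (adjusted p = 0.769), and 0.11 for *Stat3* (adjusted p = 0.782). *Socs3* was lowest in NCACS liver 14 (4.46 CPM) and next lowest in CACS liver 17 (14.03 CPM), the 2 livers that were lowest for all members. Its highest liver was CACS 20 (39.97 CPM), and NCACS liver 13, the highest for all members, was at 28.04 CPM. Of the 13 genes 2 had the same 2 lowest livers, *Socs3* and *Stat3*, against 3.3% of all tested genes. *Stat3* was at 117.7 CPM in NCACS liver 14 and at 122.5 CPM in CACS liver 17. A link of these genes to the levels of the members was not tested. NCACS liver 13 was the highest for 0 of the 13, against 14.1% of all tested genes.

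Of 10 genes of receptors and clearance of the member proteins and their cargo, 0 rose and 0 fell in edgeR's test (median log2 fold change -0.48). The largest values were -1.09 for *Lrp2*, -0.77 for *Tlr2*, -0.60 for *Cd36* and -0.51 for *Fpr2*.

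**Figure D5:**
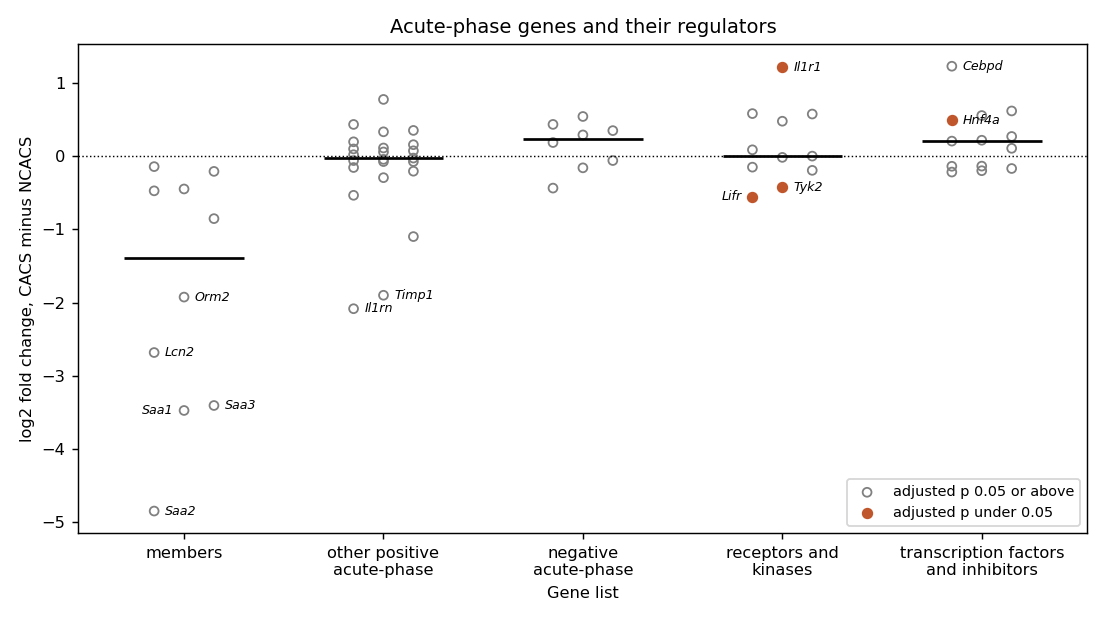
Log2 fold change (CACS minus NCACS, vertical axis) of each tested gene of 5 lists. Filled points had an adjusted p under 0.05 in edgeR's test and black bars are list medians, which are -1.39 for the members, -0.02 for other positive and 0.24 for negative acute-phase genes, 0.00 for receptors and kinases and 0.21 for transcription factors and inhibitors.

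Markers of other cells also differed between livers. The summed level of 10 neutrophil markers was 2.67, 9.83, 13.8, 1.93 and 3.24 CPM in NCACS livers 11 to 15 and 1.36 to 3.12 CPM in CACS livers, highest in NCACS liver 13 and lowest in CACS liver 17. It rested mostly on *S100a8* (log2 fold change -1.79, adjusted p = 0.111 in edgeR's test) and *S100a9* (-1.66, adjusted p = 0.124), the 2 of 10 that passed the filter. Of the others *Cxcr2* had at most 57 reads in any liver, *Retnlg* 23, *Elane* 13, *Ltf* 10, *Mpo* 9, *Ngp* 8, *Camp* 5 and *Ly6g* 2. Their mean CPM was lower in CACS for *Cxcr2*, *Retnlg*, *Ltf*, *Mpo* and *Ngp* and higher for *Elane*, *Camp* and *Ly6g*. The 8 macrophage and Kupffer cell markers summed to 176 to 297 CPM in NCACS and 108 to 211 CPM in CACS livers, with all 8 log2 fold changes below 0 and 1 of 8 called, *Cd5l* (-0.90, adjusted p = 0.0374 in edgeR's test), which was no longer called when any liver but NCACS 14 or CACS 19 was left out. Of the hepatocyte markers 1 of 8 rose, *Hnf4a*. The part of these cells in the differences of the members was not tested.

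The remaining lists had no called gene in edgeR's test. Lymphocyte markers summed to 8.81 to 19.4 CPM in NCACS and 5.98 to 12.5 CPM in CACS livers, endothelial markers to 130 to 184 and 162 to 212 CPM, stellate cell markers to 143 to 262 and 156 to 241 CPM, bile duct markers to 4.97 to 10.8 and 3.30 to 7.27 CPM, lung epithelial markers to 0.593 to 5.14 and 0.423 to 6.27 CPM and red blood cell genes to 224 to 456 and 283 to 477 CPM.

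Some genes outside the list had a pattern over the 10 livers close to that of a member, measured as the root mean square difference of log2 CPM after each gene's mean was taken off. For *Saa4* these were *Fgr* (0.147), *Cfb* (0.16) and *Steap4* (0.194), for *Hp* *Lrg1* (0.217), *Slc41a2* (0.308) and *Cfb* (0.365), for *Hpx* *Psmb8* (0.261), *Slc41a2* (0.311) and *H2-Q7* (0.318), for *Apcs* *H2-Q7* (0.23), *Cfb* (0.285) and *Cd300e* (0.29), and for *Orm1* *Col15a1* (0.326), *Oas1a* (0.341) and *Il18bp* (0.353). The root mean square of the member itself was 3.39 for *Saa2*, 3.17 for *Saa3*, 2.91 for *Saa1*, 2.7 for *Lcn2* and 1.92 for *Orm2*. It was 0.575 to 0.922 for the other members. Members of wider range had more distant neighbours. They were *Ubd* (1.23), *Chil1* (1.3) and *Cxcl10* (1.43) for *Saa3*, *Cxcl9* (0.833), *Cxcl10* (1.04) and *Tgtp1* (1.05) for *Orm2*, *Cxcl9* (1.61), *Capn8* (1.62) and *Fgl1* (1.71) for *Lcn2*, *Mup12* (1.66), *Cxcl9* (1.87) and *BC023105* (1.9) for *Saa1*, and *Mup12* (1.94), *Cxcl9* (2.25) and *Mup-ps16* (2.31) for *Saa2*. *Mup12* and *Mup-ps16* belong to the major urinary protein family, whose near-identical copies share reads, so their counts are uncertain. Among the members themselves the closest pairs were *Hp* with *Hpx* (0.248), *Saa4* with *Apcs* (0.264) and *Hpx* with *Apcs* (0.276), and *Saa1* with *Saa2* stood at 0.61.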

How the data were processed

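Read counts per gene were made by the authors and deposited as a table of raw counts for 10 livers. RNA with an integrity number above 8 was used for stranded libraries and single reads of 100 bases, and the submitters' processing notes name STAR 2.4.1d, HTSeq 0.6.1 and GRCm38. The annotation release and the strand setting are not given in the sources used here, so reads of overlapping and antisense genes may be mixed. All 10 count columns were used. Symbols came from GENCODE M21 (1081 genes without one, 70 of them tested).

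Counts were fitted in R 4.3.3 with edgeR 4.0.16 (filterByExpr, TMM factors, glmQLFit, glmQLFTest, Benjamini-Hochberg over 14143 genes). The SE of a log2 fold change is its absolute value divided by the square root of the F statistic of that test. CPM used TMM factors, and log2 CPM a prior count of 2. Ratios used CPM plus 0.5. DESeq2 1.42.0, limma-voom 3.58.1, other factors and filters and omission of single livers were alternatives. Factors without the members and levels per transcript length were added after seeing the data. Scripts were tested on simulated data. No libraries of the same group were duplicates (smallest chi-square per degree of freedom 50.7), and pairs across the groups were not compared. Part of the genotype shared by all mice is not reported here. The labels give no batch and number the mice as separate samples.

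Members and lists were chosen with earlier results of these data known. Named were all members, list genes with adjusted p under 0.05 and at most 4 others by size of change, set regulators, and the 3 genes of most similar pattern to each member. Promoter stretches are from RefSeq.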

Additional observations from a re-analysis of the deposited data

Results flagged for a closer look

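Of 30 sets of 5 livers (member levels, ratios and shares by group), 4 held a liver far from the others by Dixon's ratio of the gap to the range, and chance marks about 1 set in 20. The sets come from the same livers, so they are not separate observations. *Apcs* in CACS livers had a ratio of 0.778, with CACS liver 17 at a log2 CPM of 8.14 and the nearest liver at 9.63. The log2 ratio of *Saa1* to *Saa4* in NCACS livers had a ratio of 0.726, with NCACS liver 14 at -2.94 and the nearest at 1.73. The log2 ratio of *Hp* to *Hpx* in NCACS livers had a ratio of 0.784, with NCACS liver 14 at -0.92 and the nearest at -0.37. The share of all counts held by the 10 members in NCACS livers had a ratio of 0.713, with NCACS liver 13 at 9.19% and the nearest at 3.16%. This share was examined in percent, whereas member levels and ratios were examined on the log2 scale. No member's log2 CPM was flagged for NCACS liver 13.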

How the results depend on the processing

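No paired analysis was possible because no mouse number occurs in both groups. With all livers, edgeR called 538 genes, 267 higher and 271 lower in CACS. DESeq2 called 1386 (672 higher, 714 lower), among them 2 members, *Saa1* (-3.487) and *Saa2* (-4.864). Without a filter edgeR called 392 genes, 173 of them higher in CACS. The cause of these differences between fits was not tested. Other factors, filters, the robust fit and limma-voom called 0 members. When 1 liver was left out, 178 to 519 genes were called, 79 to 246 higher and 96 to 273 lower (the fewest lower without CACS liver 16, the fewest in all and higher without NCACS liver 11), and 0 members were called. The log2 fold changes then ranged from -4.03 to -2.41 for *Saa1*, -5.32 to -3.15 for *Saa2*, -4.04 to -0.95 for *Saa3*, -0.38 to 0.032 for *Saa4*, -1.06 to -0.25 for *Orm1*, -2.36 to -0.76 for *Orm2*, -0.71 to 0.12 for *Hp*, -0.70 to 0.12 for *Hpx*, -3.18 to -0.18 for *Lcn2* and -0.34 to 0.32 for *Apcs*, each highest without NCACS liver 13. *Apcs* was also above 0 without CACS liver 17 (0.079). The log2 ratio differences ranged from -0.928 to -0.455 for *Saa2*/*Saa1*, -3.94 to -2.16 for *Saa1*/*Saa4*, -1.21 to -0.502 for *Orm2*/*Orm1* and -0.037 to 0.166 for *Hp*/*Hpx*, each lowest without NCACS liver 14.

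Without a filter *Lifr* (adjusted p = 0.0532) and *Hnf4a* (0.0763) were not called by edgeR, nor was *Tyk2* with raw library totals (0.0516). *Il1rn* was called by DESeq2 (-2.10, adjusted p = 0.00913), by edgeR without a filter (0.0491) and without NCACS liver 14 (0.0437), and *Cebpd* by DESeq2 (adjusted p = 0.0345). With 1 liver left out, *Lifr* ranged from -0.61 to -0.44, *Il1r1* from 0.997 to 1.39, *Tyk2* from -0.47 to -0.39, *Hnf4a* from 0.45 to 0.56 and *Cd5l* from -1.01 to -0.78. Each member had at least 147 reads in every liver, and the spread between livers (SD of log2 CPM up to 3.89 with 5 livers a group) limits these comparisons.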
